A study of Mus musculus with 23 samples.

Results

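Microglia that had refilled the brain of old mice after depletion (group O-re, n = 8) were compared with the microglia of old mice that carried no repopulation label (group O, n = 5). These 13 libraries, chosen by the group field of the labels, are part of 23 in all. All mice were female C57BL/6. Depletion used PLX5622, an inhibitor of the receptor CSF1R, mixed into AIN-76A chow at 1200 ppm, and control animals ate AIN-76A chow without the drug, with cages of 5 animals. The remaining libraries were young (Y, n = 7) and young repopulated (Y-re, n = 3), and they entered the fit because all 4 groups share an estimate of the spread. How old the mice were, how long they ate the drug and how long the cells had to return is not given in the sources used here. Protocols in the labels describe both CD11b magnetic isolation followed by culture and RNA from microglia sorted by flow cytometry, so the time between brain and lysis is uncertain. The labels do not tie each library to a separate animal, and p-values then measure only the spread between libraries.

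Microglia are the resident macrophages of the brain and depend on signals through CSF1R to survive. When an inhibitor of that receptor is given, most of them die, and after withdrawal the surviving cells divide and refill the tissue. In the aged brain, microglia are known for raised interferon-stimulated and antigen-presenting genes and for lower expression of the genes that mark the surveying, homeostatic state. Interferons act by activating transcription factors, STAT2 and IRF9 among them, which bind a short element, the interferon-stimulated response element (ISRE), in front of their target genes.

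Total counts, given in units of 1e06 (M), ranged from 43.66 to 50.98 M in old and from 45.73 to 58.19 M in old repopulated libraries. Each title carries a library number between 1 and 24, whose meaning the labels do not give. Numbers 1 to 11 hold 2 old and 5 old repopulated libraries, and numbers 12 to 24 hold 3 of each. This run of numbers was therefore a term in the model, and fitted values within each run are given for many of the gene lists and for a few genes. Homeostatic microglia genes, which check the labelled cell type, summed to between 14810 and 38110 counts per 1e06 (CPM, scaled by TMM) in old and between 12900 and 47140 CPM in old repopulated libraries. Csf1r, the drug target, had a mean of 4532 ± 1233 CPM (SD, n = 5) in resident and 4270 ± 1629 CPM (SD, n = 8) in repopulated microglia, and its log2 fold change of -0.21 ± 0.19 (SE) did not pass the test (adjusted p 0.694). Old replicate 3 and old repopulated replicates 6, 7 and 8 carried the highest summed monocyte markers of the 13 libraries, from 4825 to 8776 CPM. Of the monocyte genes Ccr2 and Ly6c2, Ccr2 was highest in the same 4 libraries. Ly6c2 was higher in old replicates 5 and 2 (208 and 86.8 CPM) than in old repopulated replicates 6, 7 and 8 (86.4, 68.7 and 40.1 CPM).

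Repopulated microglia of old mice had lower levels of several interferon-induced genes, a deep loss of a mixed set of genes led by Myo18b, and higher Igf1, Pilra, Sqle and Cdkn2a. With the run term, edgeR's quasi-likelihood test called 114 of 18720 genes (0.609%) at an adjusted p under 0.05. Of these, 25 genes (0.134%) were higher and 89 (0.475%) lower in old repopulated libraries, 6 and 58 of them by at least 2-fold. The sign of all 114 changes was the same in both runs of library numbers. The genes were called from these same libraries, which favours a shared sign, so this is no separate test. Among the called genes, 8 were higher in every old repopulated than in any old library and 28 were lower in every one, where 57 (0.304%) and 81 (0.433%) of all genes tested had such separation. In the fit with a coefficient for each group in each run, 476 genes (2.54%, 0.839% higher and 1.7% lower) were called within numbers 12 to 24, 84 of them among the 114, and 3 (0.016%) within numbers 1 to 11, namely Pecam1, Mmp28 and Gm45837, the latter pair named after their values were seen. The difference between the runs was called for 0 genes by this test, where 1356 genes (7.24%) had an unadjusted p under 0.05, DESeq2 called 15 and voom 8.

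The number of calls rested on few libraries, and it was 0 when the 13 old and old repopulated libraries were fitted alone. Leaving out old replicate 1, 2, 4 or 5 gave 16, 361, 26 or 33 calls, and leaving out replicate 1, 6, 7 or 8 of the old repopulated group gave 654, 49, 55 or 33. Among the young libraries, omitting replicate 3, 5, 6 or 7 gave 178, 68, 72 or 73 calls, and omitting young repopulated replicate 1 gave 75. Without the 4 libraries of highest monocyte markers, an alternative chosen after seeing the data, 8 genes were called (2 rises and 6 falls), and 7 of these belonged to the 114. These 4 libraries include all 3 old repopulated libraries of numbers 12 to 24. Monocyte markers and run therefore cannot be told apart by this setting, here or where it is used below. Among the named genes recomputed under every setting, Myo18b, Khdrbs3, Mymk, Nlgn2, Efnb2, Gbp9, Gbp5 and Pilra were called in each of the 23 fits that left out 1 library. In 10 of these fits the library left out was young or young repopulated.

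**Figure D1:**
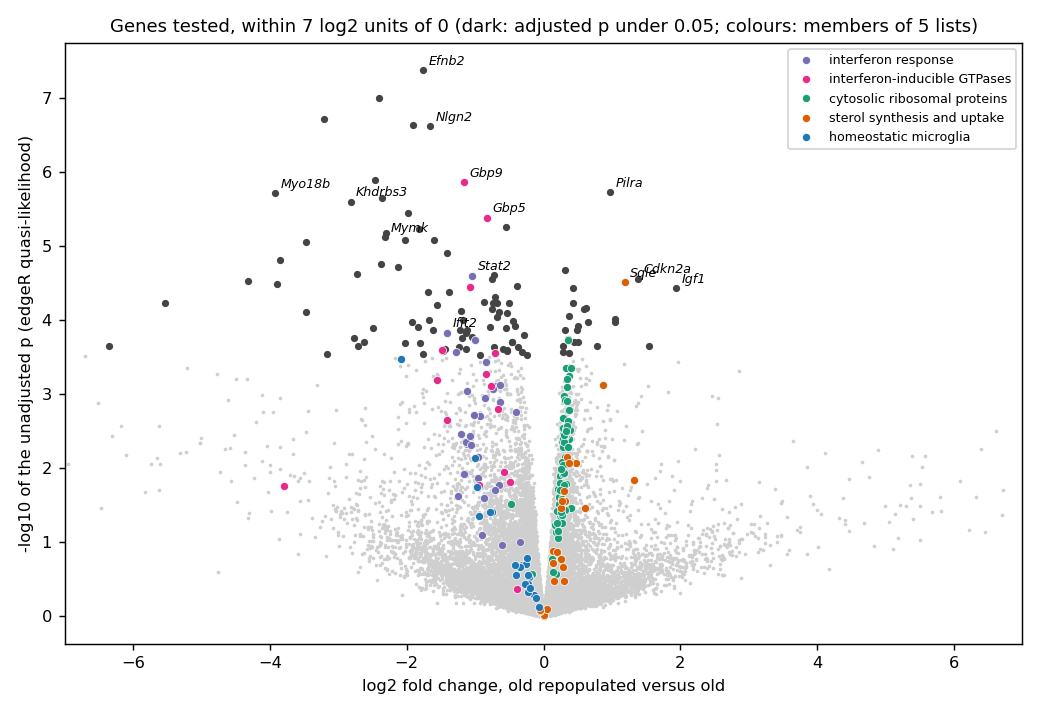
Log2 fold change of old repopulated versus old libraries (horizontal axis) against -log10 of the unadjusted p (vertical axis) for the genes tested, with 6 genes beyond 7 log2 units not drawn; dark and labelled points mark called genes, and colours mark members of 5 gene lists. Members of the interferon lists lie to the left of 0, and 75 of 77 ribosomal protein genes form a narrow band to its right.

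Among the genes that fell, the deepest named change was in Myo18b, an unconventional myosin known from striated muscle (chr5:112688876-112896362, minus strand). It was measured at 41.1, 20.9, 11.4, 43.2 and 28.3 CPM in the 5 old libraries and at 0.319 (lowest), 0.939 (median) and 5.91 CPM (highest) in the 8 old repopulated ones. The groups did not overlap, and the fall came to 15.2-fold, a log2 fold change of -3.93 ± 0.61 (SE, adjusted p 0.00409). Khdrbs3, an RNA-binding regulator of splicing, was measured at 16.9, 9.24, 5.15, 19.3 and 13.4 CPM in old libraries and at 0.207, 1.56 and 3.45 CPM (lowest, median and highest) in old repopulated ones. Every old repopulated library again lay below every old one, and the log2 fold change was -2.82 ± 0.45 (SE, adjusted p 0.0043). In young mice, whose libraries form a contrast of their own within the same fit, both genes fell as well, Myo18b by 4.73 ± 0.91 (SE, adjusted p 0.00985) and Khdrbs3 by 3.45 on the log2 scale (adjusted p 0.00895).

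Nlgn2, which encodes neuroligin-2, an adhesion protein of inhibitory synapses (chr11:69823122-69837784, minus strand), was measured at 10.7, 7.84, 6.70, 14.6 and 7.79 CPM in old libraries and at 1.63, 3.60 and 5.21 CPM (lowest, median and highest) in old repopulated ones. Its groups did not overlap, and the log2 fold change was -1.66 ± 0.22 (SE, adjusted p 0.000915). Efnb2, the ephrin-B2 ligand of Eph receptors, was named after its values were seen because it had the smallest p, with a log2 fold change of -1.76 ± 0.21 (SE, adjusted p 0.000796). Efnb2 was measured at 13.1, 7.54, 2.70, 8.58 and 4.88 CPM in old libraries and at most at 3.86 CPM in old repopulated ones, so that old replicate 3 lay within the old repopulated range. In young mice the log2 fold change was -1.42 in Nlgn2 (adjusted p 0.01455) and -2.29 in Efnb2 (adjusted p 0.000254). Col6a3, a chain of collagen VI, changed by -2.73, with a mean of 55.34 ± 25.01 CPM (SD, n = 5) in resident and 12.31 ± 12.16 CPM (SD, n = 8) in repopulated microglia, and overlapping ranges. Cdh23, a cadherin known from the tip links of hair cells, changed by -2.30, and Csmd3, a large protein with CUB and sushi domains, by -2.02 on the log2 scale.

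The other named falls were Mymk (-2.32), the myoblast fusion protein myomaker, Ildr2 (-1.92), Hspa12a (-1.84), a member of the Hsp70 family, Tmem44 (-1.82), Dusp27 (-1.81) and Dlg5 (-1.76), a membrane scaffold. Dlg5 was called in 6 of the 23 fits without 1 library, and Csmd3 and Dusp27 were called in 8. Mymk was measured at 15.9, 14.4, 6.76, 12.7 and 8.55 CPM in old libraries and at 0.630, 3.49 and 6.81 CPM (lowest, median and highest) in old repopulated ones, where only the lowest old and the highest old repopulated library crossed. Within old repopulated libraries, Mymk stood between 0.630 and 0.942 CPM in the 3 libraries numbered above 11 and reached at least 5.92 CPM in 4 of the 5 numbered 1 to 11. Ildr2 and Dlg5 were higher in old than in young libraries (where 3.3% of genes were called, 2.83% higher), by 1.71 ± 0.39 (SE, adjusted p 0.019) and 2.79 ± 0.42 (SE, adjusted p 0.0016), a comparison that shares the old libraries with the one described. Against young libraries, old repopulated ones differed by -0.21 in Ildr2 (adjusted p 0.722) and by 1.03 in Dlg5 (adjusted p 0.0472).

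Among the genes that rose, Igf1, a growth factor that microglia secrete (chr10:87858265-87937042, plus strand), had the largest called rise among the named genes. It was measured at 27.7, 47.9, 13.9, 24.1 and 24.5 CPM in old libraries and at 34.7, 105.8 and 158.5 CPM (lowest, median and highest) in old repopulated ones. Old replicate 2 was the single old library above the lowest old repopulated library, and the log2 fold change was 1.94 ± 0.38 (SE, adjusted p 0.019). Igf1 was lower in old than in young libraries, by -1.78 ± 0.39 (SE, adjusted p 0.0147). The log2 fold change of old repopulated against young libraries was 0.16 ± 0.33 (SE, adjusted p 0.779). Both comparisons share libraries with the first and average over unlike runs. In the lower run of library numbers, Igf1 stood at 44.3 to 71 CPM in young and at 27.7 and 47.9 CPM in old libraries. Old repopulated libraries of that run stood at 34.7 to 158.5 CPM. In the higher run, young libraries stood at 104.6 to 171.2 CPM and old ones at 13.9 to 24.5 CPM. Old repopulated libraries there stood at 76.4 to 127.8 CPM. Old and young libraries thus overlapped in the lower run only. In young mice repopulation left Igf1 at a log2 fold change of 0.05 (adjusted p 0.978), and the difference between the effects in old and young mice, 1.89, did not pass (adjusted p 0.29).

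Pilra encodes an inhibitory receptor of myeloid cells with a closely related activating partner, so its count is uncertain (chr5:137821952-137836281, minus strand). It was measured at 34.4, 39.9, 31.1, 28.1 and 33.3 CPM in old libraries and at 47.0, 60.4 and 89.2 CPM (lowest, median and highest) in old repopulated ones. Every old repopulated library lay above every old one, and the log2 fold change was 0.98 ± 0.15 (SE, adjusted p 0.00409). Pilra also rose in young mice, by 1.36 ± 0.18 (SE, adjusted p 0.000254). Without the 4 libraries of highest monocyte markers its change in old mice was 0.67 (adjusted p 0.147).

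Cdkn2a, which encodes the cell cycle inhibitors p16 and p19 (chr4:89274471-89294653, minus strand), was measured at 2.75, 4.25, 0.928, 2.24 and 2.17 CPM in old libraries and at 4.07, 6.81 and 9.07 CPM (lowest, median and highest) in old repopulated ones. Old replicate 2 alone crossed into the old repopulated range, and the log2 fold change was 1.38 ± 0.26 (SE, adjusted p 0.0175). In young mice Cdkn2a rose by 2.07 ± 0.30 (SE, adjusted p 0.000679). It was the single called member of 16 senescence and p53 pathway genes (6.25%, against 0.134% of all genes called higher). Of these genes 9 were higher and 7 lower, with a median of 0.08. Cdkn1a, the p53-induced inhibitor p21, had a log2 fold change of -0.02 (adjusted p 0.982).

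The other named rises were Mical2 (1.55), an actin-oxidizing monooxygenase, Pxdc1 (1.04), Ppp3cc (0.78), a catalytic subunit of calcineurin, Spred2 (0.65), an inhibitor of Ras-ERK signalling, Sfxn1 (0.62), a mitochondrial serine transporter, and Ppfibp1 (0.59). Mical2 was called in 5 and Ppp3cc in 7 of the 23 fits without 1 library. Smaller rises were called in Tfrc (0.49), the transferrin receptor, Fkbp4 (0.45), an Hsp90 cochaperone, and Spcs3 (0.43), a signal peptidase subunit. Tfrc was measured at 22.5 to 31.3 CPM in old libraries and at 28.9, 36.1 and 47.6 CPM (lowest, median and highest) in old repopulated ones, and the highest 3 values were those of replicates 6, 7 and 8.

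**Figure D2:**
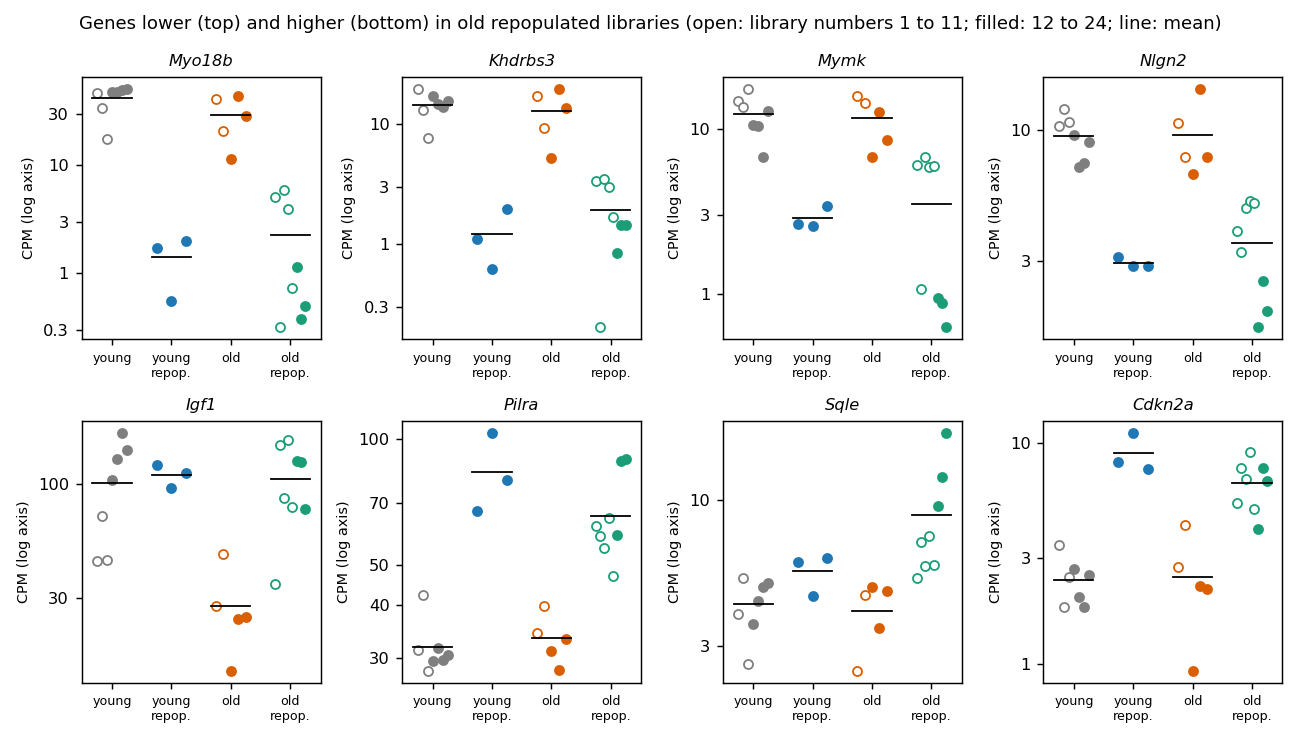
CPM on log axes in each library for 4 genes that fell (top) and 4 that rose (bottom) in old repopulated versus old libraries, by group, with open symbols for library numbers 1 to 11, filled symbols for 12 to 24 and lines for group means. In Myo18b, Khdrbs3 and Nlgn2 the 8 old repopulated libraries lie below all 5 old ones, and in Pilra and Sqle above them.

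All 30 members of the interferon response list, a set of genes induced by type I interferon, had lower fitted values in old repopulated libraries. Ifit2, Ifit3, Stat2 and Xaf1 passed the test (13.3%, against 0.475% of all genes called lower). An unadjusted p under 0.05 was found in 26 of 30, against 14% of all genes (6.67% higher and 7.38% lower). The median log2 fold change was -0.94, against -0.01 over all genes. The median was -0.47 within numbers 1 to 11 and -1.11 within 12 to 24, with all 30 members lower in each run. In bulk libraries, fewer cells with an interferon response and less RNA per cell cannot be told apart. All 30 members were also lower in each of the 37 other settings, although 0 were called when the old and old repopulated libraries were fitted alone.

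Promoter stretches of 5 called genes of this list and of the interferon-inducible GTPases are printed from RefSeq's promoter table (build GRCm38.p6), because they hold the core of the ISRE (GAAA, any 2 bases and GAAA again). All are written on the plus strand with the match in capitals. In Ifit3, Stat2, Gbp2 and Gbp5 the core lies on the minus strand, so that the capitals show its reverse complement.
Ifit3 (chr19:34583387-34583436, plus strand): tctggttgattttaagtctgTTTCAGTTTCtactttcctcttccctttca
Stat2 (chr10:128270256-128270305, plus strand): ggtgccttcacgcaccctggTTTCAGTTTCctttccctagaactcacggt
Gbp2 (chr3:142620584-142620633, plus strand): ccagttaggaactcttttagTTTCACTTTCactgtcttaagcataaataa
Gbp5 (chr3:142496749-142496798, plus strand): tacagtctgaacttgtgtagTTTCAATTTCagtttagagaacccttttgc
Irgm2 (chr11:58214893-58214942, plus strand): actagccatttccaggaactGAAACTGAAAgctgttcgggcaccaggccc
The search covered both strands of windows from 250 bases before to 50 bases after the RefSeq start, where 21 of the 30 interferon response genes and 9 of the 15 interferon-inducible GTPase genes described below had an entry. The core was found in 13 of the 21 (61.9%) and in all 9 GTPase genes (100%), against 458 of 11497 tested genes with an entry (3.98%). Of the called genes with an entry, it was found in 10 of 62 that fell (16.1%) and 3 of 17 that rose (17.6%). The windows of Ifit2 and Xaf1 held no match. A match is a description of the letters in the window.

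Ifit2 and Ifit3 encode antiviral proteins that bind viral RNA or its sensors. Ifit2 was measured at 132.6, 154, 366, 224 and 274 CPM in old libraries and at 24.7, 98.2 and 114 CPM (lowest, median and highest) in old repopulated ones. The groups did not overlap, old replicate 3 was the highest library, and the log2 fold change was -1.42 ± 0.31 (SE, adjusted p 0.037). Ifit3, whose near-identical neighbour Ifit3b makes its count uncertain, was measured at 112, 97.7, 256, 151 and 210 CPM in old libraries (in the order of replicates 1 to 5) and at 17.3, 76.9 and 83.8 CPM (lowest, median and highest) in old repopulated ones. Here too the groups did not overlap, with a log2 fold change of -1.28 ± 0.30 (SE, adjusted p 0.047). The call was made in 12 of the 23 fits without 1 library for Ifit2 and in 5 of them for Ifit3.

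Stat2, the signal transducer of type I interferon, was measured at 109.7, 89.4, 230.4, 146 and 178 CPM in old libraries and at 52.6, 70.2 and 96.0 CPM (lowest, median and highest) in old repopulated ones. Only old replicate 2 lay within the old repopulated range, and the log2 fold change was -1.04 ± 0.20 (SE, adjusted p 0.0169). It was -0.46 within numbers 1 to 11, -1.36 within 12 to 24, and -0.86 (adjusted p 0.29) without the 4 libraries of highest monocyte markers. Xaf1, an interferon-induced regulator of apoptosis, was lower (adjusted p 0.0422, called in 8 of the 23 fits without 1 library), at 32.1 to 63.7 CPM in old and 13.4 to 33.9 CPM in old repopulated libraries. Among members that did not pass, the log2 fold change was -1.16 for the regulator Irf7, -1.12 for the ubiquitin-like Isg15, -1.02 for Mx1 and -0.85 for the RNA sensor Ddx58, with adjusted p between 0.0536 and 0.2. Cxcl10, a chemokine of the list, was measured at 96.4 to 253 CPM in old and 37.4 to 147 CPM in old repopulated libraries, with a log2 fold change of -0.86 (adjusted p 0.0773).

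Further interferon-induced genes outside the list were called lower, and are named after their values were seen. Pml, the organizer of nuclear bodies, fell by 0.73, Herc6, a ligase that attaches Isg15, by 0.88, Uba7, the enzyme that activates Isg15, by 0.67, Eif2ak2, the RNA-activated kinase PKR, by 0.53, and Trafd1 by 0.53 on the log2 scale. Eif2ak2 was measured at 99.9 to 143 CPM in old libraries and at most at 98.2 CPM in old repopulated ones.

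The interferon-inducible GTPases, which attack the vacuoles of intracellular pathogens and are induced chiefly by interferon gamma, behaved likewise. All 15 members had lower fitted values, with a median of -0.85. The test called 5 (33.3%, against 0.475% of all genes called lower). An unadjusted p under 0.05 was found in 14 (93.3%, against 14% of all genes). Within numbers 1 to 11 the median was -0.53, with 14 members lower and 1 higher, and within 12 to 24 it was -1.10. Gbp9 (chr5:105077630-105139539, minus strand) was measured at 60.4, 40.3, 67.2, 54.1 and 59.5 CPM in old libraries and at 15.3, 27.4 and 39.5 CPM (lowest, median and highest) in old repopulated ones. The groups did not overlap, and the log2 fold change was -1.16 ± 0.18 (SE, adjusted p 0.00371). Gbp5 was measured at 34.6, 29.1, 28.3, 32.2 and 27.5 CPM in old libraries and at 12.7, 18.4 and 27.8 CPM (lowest, median and highest) in old repopulated ones, so that the highest old repopulated library lay just above the lowest old one, with a change of -0.83 ± 0.14 (SE, adjusted p 0.00605). Gbp2 changed by -1.07 without overlap of the groups (adjusted p 0.019), Irgm2 by -0.71 (adjusted p 0.0473) and Gbp4 by -1.49 (adjusted p 0.0465). Irgm2 and Gbp4 were each called in 5 of the 23 fits without 1 library, and Gbp2 in 20. Gbp4 overlaps Gbp9 on the same strand, and the family has many similar members, so the division of reads among them is uncertain.

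**Figure D3:**
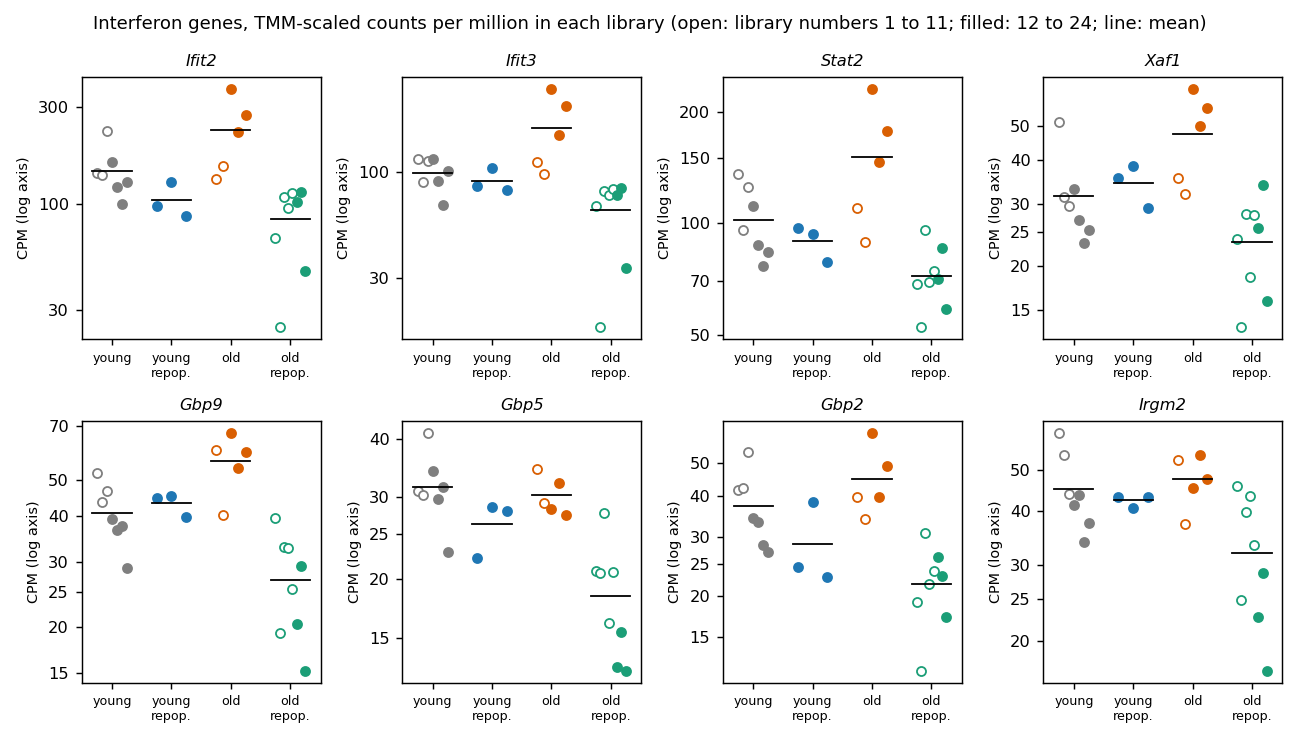
CPM on log axes in each library for 8 called members of the interferon lists, by group, with open symbols for library numbers 1 to 11, filled symbols for 12 to 24 and lines for group means. In Ifit2, Ifit3, Gbp9 and Gbp2 all 8 old repopulated libraries lie below all 5 old ones, and the 3 old libraries numbered above 11 are the highest of these 13 in Ifit2, Ifit3, Stat2 and Xaf1.

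The summed interferon response list stood between 3063 and 7394 CPM in old and between 1242 and 3726 CPM in old repopulated libraries, with 3 old repopulated libraries above the lowest old one. Among old libraries the highest sum was that of replicate 3, which also had the highest summed monocyte markers of its group (5637 CPM, against 594 to 2934 in the other 4). Among old repopulated libraries the monocyte sum was highest in replicates 6 and 8 (8776 and 8483 CPM), where the interferon sum was 3726 and 2161 CPM. Without the 4 libraries of highest monocyte markers, the interferon median was -0.91 with all 30 members lower and 0 called, and with the monocyte markers as a covariate it was -0.95 with 19 called.

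**Figure D4:**
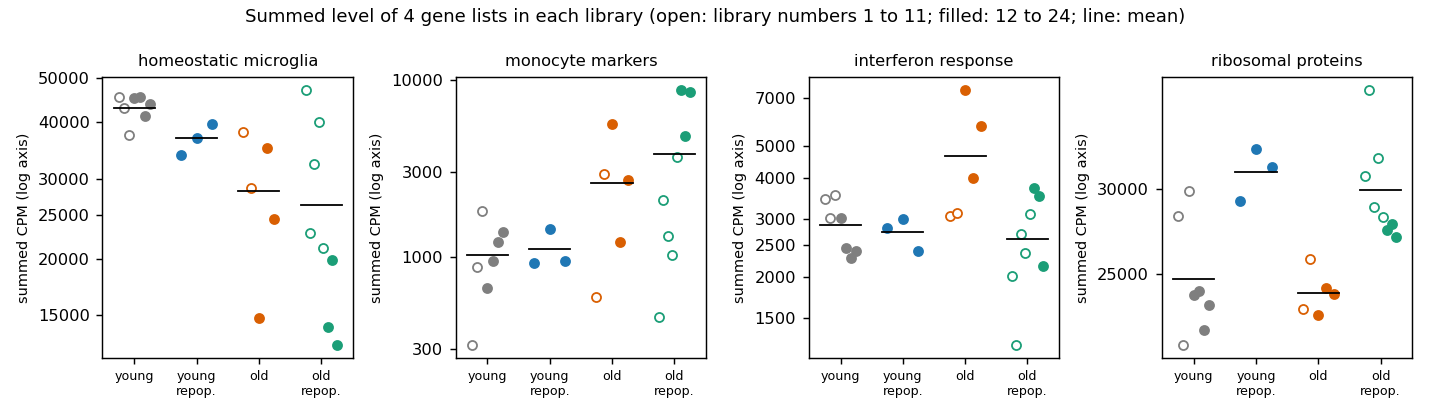
Summed CPM of 4 gene lists in each library on log axes, by group, with open symbols for library numbers 1 to 11, filled symbols for 12 to 24 and lines for group means. Ribosomal protein sums of all 8 old repopulated libraries lie above those of all 5 old ones, while homeostatic and monocyte sums overlap between these groups.

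Antigen presentation was less clear. Of 16 genes of MHC class I and peptide loading, 13 had lower and 3 higher fitted values, with a median of -0.25 and none called. An unadjusted p under 0.05 was found in 7 (43.75%, against 14% of all genes). Within numbers 1 to 11 the median was -0.02, with 9 members lower and 7 higher. It was -0.45 within 12 to 24, with 13 lower and 3 higher. The members nearest to the threshold were Tap1, a subunit of the peptide transporter (-0.56, adjusted p 0.0647), and the class I gene H2-Q4 (-0.89, adjusted p 0.0647), which has near-identical relatives. Of 10 MHC class II genes, 8 were lower and 2 higher, with a median of -0.15 and 0 called. The direction turned without old replicate 3 (median 0.38, 8 higher and 2 lower), and within numbers 12 to 24 the median was 0.16 with 7 members higher. H2-Aa was measured at 50.3 to 1123 CPM in old and 66.8 to 699 CPM in old repopulated libraries, and Cd74, the invariant chain, at 153 to 2232 and 189.5 to 1471 CPM. In both genes old replicate 3 was the highest library, as it was for the monocyte chemokine receptor Ccr2 among the 13 libraries (562 CPM).

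Homeostatic microglia genes, the receptors and enzymes of surveying microglia, did not pass in any of 20 members. All 20 had lower fitted values with a median of -0.26, and 6 had an unadjusted p under 0.05 (30%, against 14% of all genes). The median was -0.07 within numbers 1 to 11, where 6 members were higher, and -0.73 within 12 to 24, where all were lower. P2ry12, the purinergic receptor that steers processes to injury, was measured at 1689, 955, 468, 1444 and 914 CPM in old libraries and at 239, 526.5 and 1947 CPM (lowest, median and highest) in old repopulated ones. The ranges overlapped widely, the log2 fold change was -0.79 ± 0.36 (SE, adjusted p 0.317), and old replicate 3 and old repopulated replicates 6, 7 and 8, those with the highest monocyte sums, were the 4 lowest libraries. Without these 4 libraries, which include every old repopulated library of numbers 12 to 24, the list's median was -0.04. The part of other cells in the homeostatic values cannot be told apart from the run in this setting. It was not tested further. Sall1, a transcription factor that marks microglia, had a change of -0.94 (adjusted p 0.333), Crybb1 of -2.08 (adjusted p 0.0523) and Tmem119 of -0.19 (adjusted p 0.78).

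The disease-associated microglia list, the genes that rise in microglia around plaques and in aged white matter, had 17 of 23 members higher and 6 lower, with a median of 0.14. Igf1 was the single call (4.35%, against 0.134% of all genes called higher). Within numbers 1 to 11 it had 19 members higher and 4 lower (median 0.17), and within 12 to 24 it had 12 higher and 11 lower (median 0.05). Axl, a receptor for dying cells, was measured at 396.5, 489.9, 517.5, 355.5 and 555.5 CPM in old libraries and at 498, 705.5 and 1188 CPM (lowest, median and highest) in old repopulated ones. The ranges overlapped through old replicates 3 and 5, and the log2 fold change was 0.67 ± 0.17 (SE, adjusted p 0.0647). In young mice the change in Axl was 1.82 ± 0.19 (SE, adjusted p 2.73e-05), and that in Clec7a, the beta-glucan receptor dectin-1, was 1.26 (adjusted p 0.000233), where old mice had 0.49 (adjusted p 0.0825). The difference between ages did not pass for either gene (-1.15, adjusted p 0.176 for Axl and -0.77, adjusted p 0.253 for Clec7a). Apoe, the lipid carrier, had log2 fold changes of 0.67 in old (adjusted p 0.364) and 1.60 in young mice (adjusted p 0.0268), and Spp1, osteopontin, of 0.86 in old mice (adjusted p 0.387).

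Of 77 cytosolic ribosomal protein genes, 1 was called (1.3%, against 0.134% of all genes called higher), while 75 had higher fitted values and 2 lower. An unadjusted p under 0.05 was found in 64, against 14% of all genes. The median was 0.28 (0.34 within numbers 1 to 11 and 0.20 within 12 to 24). Rps16, a protein of the small subunit, was that call, measured at 251, 319, 304, 277 and 284 CPM in old libraries and at 337, 379 and 437 CPM (lowest, median and highest) in old repopulated ones, with a log2 fold change of 0.36 ± 0.08 (SE, adjusted p 0.0422) and no overlap. It was called in 7 of the 23 fits without 1 library, and 0 members were called with the old and old repopulated libraries alone. In 19 of the 77 members every old repopulated library lay above every old one, against 57 (0.304%) of all genes tested. Rpl4 was among the 19 (adjusted p 0.0634). Ribosomal genes have many processed pseudogenes, which can take or lend reads, and called rises outside the naming rule included Rpl14-ps1. In young mice the median of the list was 0.39, with 25 members called higher, and 9 without the run term.

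Sterol synthesis and uptake genes had 21 of 23 members higher and 2 lower, with a median of 0.27. An unadjusted p under 0.05 was found in 11 (47.8%, against 14% of all genes). The single call was Sqle (4.35%, against 0.134% of all genes called higher). Sqle, squalene epoxidase (chr15:59315077-59331192, plus strand), was measured at 2.45, 4.55, 4.88, 3.48 and 4.70 CPM in old libraries and at 5.27, 7.23 and 17.3 CPM (lowest, median and highest) in old repopulated ones. All old repopulated libraries lay above all old ones, replicates 6, 7 and 8 were the highest, and the log2 fold change was 1.19 ± 0.23 (SE, adjusted p 0.018). Stard4, a carrier of cholesterol, also had no overlap (0.87, adjusted p 0.07), while Fdps (0.47, adjusted p 0.175) and Srebf2 (0.37, adjusted p 0.174), the regulator of the pathway, did not pass. The list's median was 0.17 within numbers 1 to 11, 0.44 within 12 to 24, and 0.15 without the 4 libraries of highest monocyte markers. The core of the sterol regulatory element, TCACNCCAC on either strand, was found in 1 of 16 members with a promoter entry (6.25%), against 1.42% of tested genes with an entry.

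Energy metabolism genes leaned upward with no member called. Nuclear genes of oxidative phosphorylation had 29 of 30 members higher (median 0.18), and glycolysis and hypoxia genes 17 of 19 (median 0.25). Gpi1, glucose-6-phosphate isomerase, had a log2 fold change of 0.36 (adjusted p 0.0869), and Eno1, an enolase, of 0.41 (adjusted p 0.175). The 13 protein genes of the mitochondrial genome had a median of 0.04. Of 14 iron handling genes 11 were higher, with Tfrc as the single call (7.14%, against 0.134% of all genes called higher). The iron exporter Slc40a1 had a change of -0.87 (adjusted p 0.252).

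Immediate early and dissociation genes, which also rise when cells are handled, had 18 of 20 members lower with a median of -0.43 and none called. The median was 0.03 within numbers 1 to 11 and -0.89 within 12 to 24. Klf2 had a change of -1.08 (adjusted p 0.14), with old repopulated replicate 1 at 268 CPM and the other 7 between 45.3 and 139 CPM. Cell cycle genes, which mark dividing cells, had 14 members higher and 10 lower of 24, with no member called or at an unadjusted p under 0.05. Their median was 0.04, but -0.60 with all 24 lower within numbers 1 to 11, and 0.68 with all 24 higher within 12 to 24. Mki67 was measured at 151.6, 176, 91.9, 154 and 185 CPM in old libraries and at 26.2, 154 and 324 CPM (lowest, median and highest) in old repopulated ones.

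Of the Toll-like receptor and NF-kB list (28 members, 19 lower), Irak2 was the single call (3.57%, against 0.475% of all genes called lower). It encodes a kinase downstream of the Toll-like and IL-1 receptors. Irak2 was measured at 148, 131, 164, 160 and 161 CPM in old libraries (replicates 1 to 5, rounded) and at 102, 119 and 137 CPM (lowest, median and highest) in old repopulated ones, a log2 fold change of -0.38 ± 0.09 (SE, adjusted p 0.0448), called in 5 of the 23 fits without 1 library. Of 17 chemokine genes 11 were higher and 6 lower, and none was called. Within numbers 1 to 11 the chemokine median was -0.18, with 10 lower and 7 higher. It was 0.43 within 12 to 24, with 7 lower and 10 higher. Cxcl1, a neutrophil attractant, was measured at 1.75 to 13.3 CPM in old and at 5.06, 27.5 and 99.6 CPM (lowest, median and highest) in old repopulated libraries, with a change of 2.85 ± 0.70 (SE, adjusted p 0.0595). Ccl3 and Ccl4, chemokines of activated microglia, had changes of -0.88 and -0.85 (adjusted p 0.155 and 0.175). Lysosomal, complement, TGF-beta, Fc receptor, cytokine, heat shock, purinergic, lipid storage, antioxidant, uptake, alternative activation and microglial transcription factor lists held 0 called members.

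**Figure D5:**
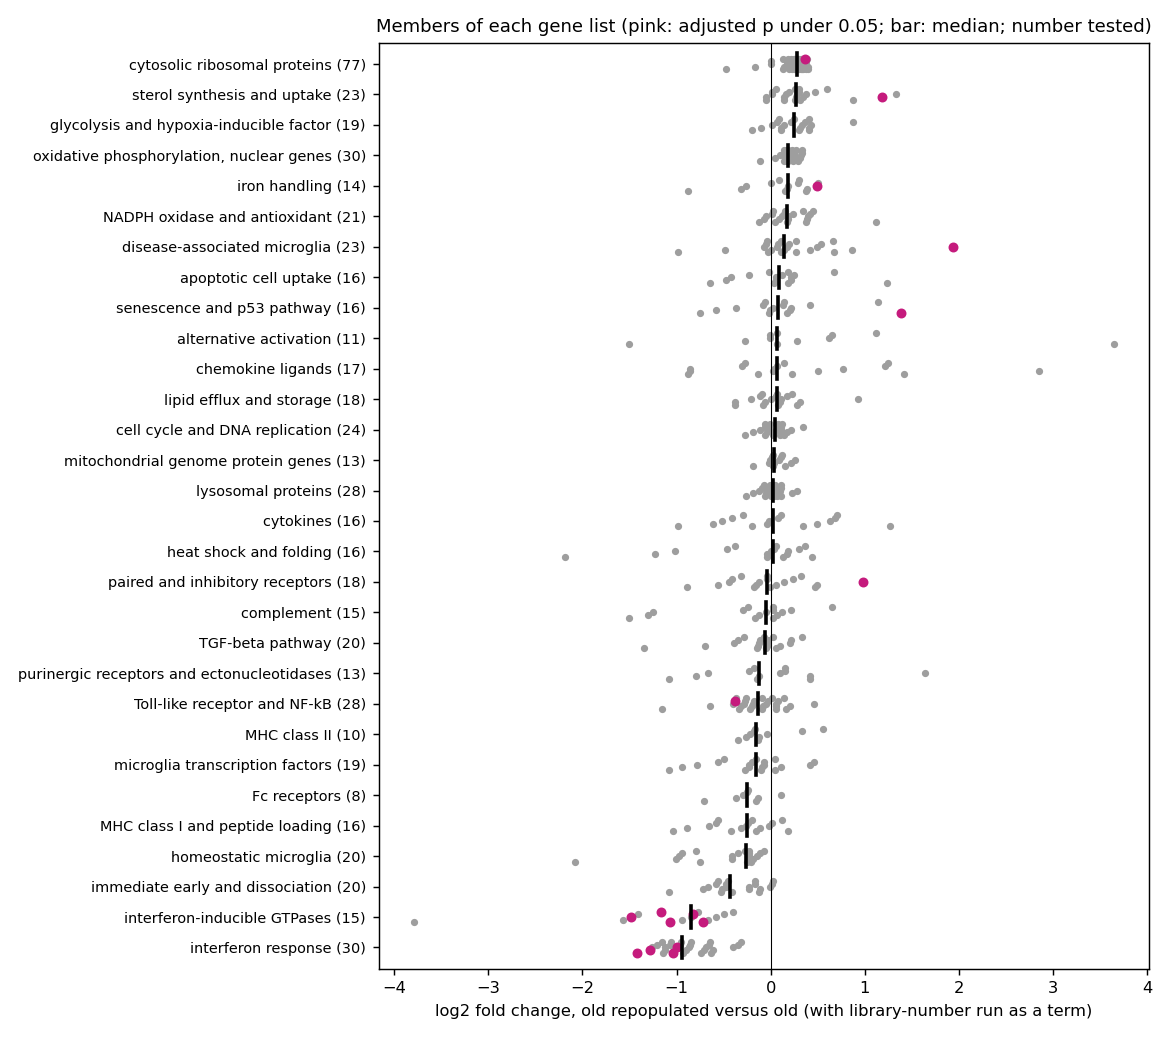
Log2 fold change of old repopulated versus old libraries (horizontal axis) for each member of 30 gene lists (vertical axis, number of members tested in brackets), with called members in pink and medians as bars. The interferon response (-0.94) and interferon-inducible GTPase (-0.85) medians lie lowest, and the ribosomal protein median (0.28) highest.

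Markers of other cells were present at low to moderate levels. Of 12 monocyte markers, 9 had higher and 3 lower fitted values, with 0 called. Within numbers 1 to 11 their median was -0.10, with 7 lower and 5 higher. It was 0.72 within 12 to 24, with 3 lower and 9 higher. Their summed levels were 594 to 5637 CPM in old and 457 to 8776 CPM in old repopulated libraries. Among defining monocyte genes, Ly6c2 was measured at 7.56 to 378 CPM in old and 2.97 to 86.4 CPM in old repopulated libraries, and Ccr2 at 16.9 to 562 and 32.3 to 452.5 CPM, and neither was at 0 in any of these libraries. The alternative activation gene Arg1 was measured at 1.46 to 507 CPM in old and 2.57 to 619 CPM in old repopulated libraries, with its highest values in the same 4 libraries that led in monocyte markers. Of 12 border-associated macrophage markers 9 were higher and 3 lower, with sums of 1327 to 2391 and 698 to 3166 CPM. Within that list Cd163 had a change of -1.50 (adjusted p 0.0884) and Mrc1 of 1.11 (adjusted p 0.284). Of 10 endothelial markers Pecam1 was called (10%, against 0.475% of all genes called lower). Its log2 fold change was -1.44 ± 0.33 (SE, adjusted p 0.0462), with -2.36 within numbers 1 to 11 and -0.52 within 12 to 24. Pecam1 was called in 4 of the 23 fits without 1 library. It was measured at 19.7, 18.4, 17.2, 18.5 and 10.9 CPM in old libraries and at 1.17, 4.78 and 13.3 CPM (lowest, median and highest) in old repopulated ones, while the whole list summed to 52.3 to 104 and 24.5 to 90.3 CPM. Of 5 B lymphocyte markers 3 were lower and 2 higher, with 2 at an unadjusted p under 0.05 and a median of -0.46 (0.10 within numbers 1 to 11 and -1.71 within 12 to 24), and sums of 90.6 to 301 CPM in old and 25.9 to 187 CPM in old repopulated libraries. Astrocyte markers had 8 of 10 members lower (median -0.41), with sums of 67.0 to 132 CPM and 24.8 to 112 CPM, and the 5 erythroid markers were all lower (median -0.78), with sums of 5.51 to 137.5 CPM and 4.21 to 75.2 CPM. None of the markers of these 3 cell types was called. Sums of neuron markers stayed between 2.25 and 9.53 CPM, and those of T and NK cell markers between 3.38 and 25.4 CPM, over the 13 libraries. The part of these cells in the results was not tested beyond the settings given.

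Whether renewal did the same in young and old mice was asked with libraries that the 2 contrasts do not share, although they share the model and its run term. Repopulation in young mice called 326 genes (1.74%, 0.924% higher and 0.817% lower), and 251 (1.34%) without the run term. All 3 young repopulated libraries had numbers 22 to 24, which no other library had. The run term placed them with the young libraries of numbers 12 to 15. A run of their own could not be told apart from the group. Of the 89 falls in old mice, 27 were also called lower in young mice, and of the 25 rises 7 were also called higher, with 0 called in the opposite direction. Without the run term these counts were 24 and 5, and with the young repopulated libraries placed in the lower run, an alternative chosen after seeing the data, 43 and 8. In each of these 3 fits young mice also had calls in Myo18b, Khdrbs3, Efnb2, Nlgn2, Tmem44, Pecam1, Pxdc1, Pilra and Cdkn2a. The same held for Axl, Clec7a and Apoe, which were not called in old mice. Another 10 of the 89 falls had a positive and 3 of the 25 rises a negative log2 fold change in young mice. The difference between the effects was called for 7 genes (0.0374%), none of them among the 114, and for 0 genes without the run term, with 2049 genes (10.9%) at an unadjusted p under 0.05. The interferon lists differed in their medians, -0.94 in old and -0.18 in young mice for the interferon response and -0.85 and 0.01 for the GTPases, but 0 members passed the test of the difference. With the young repopulated libraries in the lower run the young medians were 0.07 and -0.07. Stat2, for example, had a difference of -0.82 (adjusted p 0.364), and Gbp9 of -1.38 (adjusted p 0.11).

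The rule named 5 of these 7 genes, and none of the 5 differences was called with the young repopulated libraries placed in the lower run. Wdfy1, an adaptor of Toll-like receptor signalling, had a log2 fold change of -0.19 in old and 1.23 in young mice, a fitted difference of -1.42 (adjusted p 0.000113). In young libraries it was measured at 112 to 130.0 CPM in numbers 1 to 11 and at 44.5 to 56.2 CPM in numbers 12 to 15, and in young repopulated libraries at 111 to 117 CPM. Old and old repopulated libraries showed the same split by number, with at least 90.4 CPM in numbers 1 to 11 and at most 48.6 CPM above them. With the young repopulated libraries placed in the lower run the change in young mice was -0.18 (adjusted p 0.421), and without the run term the difference between ages was -0.32 (adjusted p 0.95).

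Pgk1, a glycolytic enzyme, likewise stood at 137 to 158 CPM in young repopulated libraries, against 154 to 181 CPM in young libraries of numbers 1 to 11 and 239.5 to 292 CPM in numbers 12 to 15. Its fitted difference of 1.23 (adjusted p 0.022) was 0.55 (adjusted p 0.307) with the young repopulated libraries in the lower run. Ssr2, a subunit of the translocon-associated complex, had a difference of 0.88 (adjusted p 0.0166), and 0.53 (adjusted p 0.135) under that placement. Tnfsf8, the CD30 ligand, was measured at 25.4 to 29.8 CPM in young repopulated and at 2.28 to 10.1 CPM in young libraries, a change that was called in all 3 fits. Its difference between ages, -2.36 (adjusted p 0.0166), was -1.80 (adjusted p 0.0704) under that placement and -1.88 (adjusted p 0.319) without the run term. CT009757.5 was measured at 0.0214 CPM at most in the 3 young repopulated libraries and at 0.113 to 1.26 CPM in old repopulated ones. The size of its fitted difference, 6.38 (adjusted p 0.0166), depends on the prior count, and no other prior count was tried. It was 4.325 (adjusted p 0.104) under that placement.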

How the data were processed

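RNA sequencing tables of 23 libraries were used, 1 per sample, from stranded poly(A) libraries made from 2.4 to 147 ng of RNA and read as single reads of 50 nt, per the labels' protocols. The authors deposited expected counts per gene (53090 genes), which RSEM estimates and which need not be whole. The submitters' processing notes name FastQC 0.11.5, STAR, RSEM, limma and the build GRCm38, and the strand setting of the counting was not given in the sources used here. Of the expected counts, 87.26% were whole within 1e-06. They were rounded, filtered with filterByExpr (18720 genes kept) and scaled by TMM.

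The groups and the run of library numbers (1 to 11 or 12 to 24) were fitted over all 23 libraries with edgeR 4.0.16 in R 4.3.3 (quasi-likelihood test, prior count 0.125), with Benjamini-Hochberg adjustment over all genes and a threshold of 0.05. Every adjusted p given is from this fit unless another is named. Standard errors are the size of the log2 fold change divided by the square root of its F statistic. Within-run values come from a fit with a coefficient for each group in each run. DESeq2 1.42.0 and limma 3.58.1 (voom) served as alternatives. Total counts are given in the report, and arithmetic means of CPM are shown with SDs. The script was tested on simulated counts with changes planted in the old repopulated group only. The simulation held no run effect, so it does not cover differences between runs.

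The members and the gene lists were chosen with earlier results of these data known. Named were the 12 largest called rises and falls with a mean of at least 5 CPM over the 13 libraries, without predicted genes, pseudogenes and multi-copy noncoding RNAs, up to 5 called members of each list, list members where their list is described, Csf1r, the genes Myo18b, Khdrbs3 and Pilra, and up to 5 genes that differed between ages. Others are named as chosen after their values were seen. Gene positions are from GENCODE M21, where 49121 identifiers matched with their version. Of tested genes, 11497 had a promoter window in the RefSeq table. The values of some list members are not reported here.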

Additional observations from a re-analysis of the deposited data

Results flagged for a closer look

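In 10 of 280 groups of 5 or 8 libraries looked at, the highest or lowest library stood far from the rest, where chance gives about 1 in 20. Old repopulated replicate 2 was highest in Rpl4 (1545 CPM, next 1238), Gpi1 (522 CPM, next 383) and the summed protein genes of the mitochondrial genome (29450 CPM, next 20810). Old replicate 3 was highest in Ppfibp1 (24.1 CPM, next 18.8) and in Arg1 (507 CPM, next 84.5). Old replicate 5 was lowest in Pecam1 (10.9 CPM, next 17.2), and old replicate 2 was highest in the complement gene C2 (5.43 CPM, next 3.34). Old repopulated replicate 1 was highest in Klf2 (268 CPM, next 139). The summed erythroid markers were highest in old replicate 4 (137.5 CPM, next 34.7) and old repopulated replicate 7 (75.2 CPM, next 28.6).

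In the fit with the run term, edgeR's interaction test called a difference between the effects of repopulation in old and young mice for 5 named genes. The difference in log2 fold change, old less young, was -1.42 for Wdfy1, -2.36 for Tnfsf8, 1.23 for Pgk1, 0.88 for Ssr2 and 6.38 for CT009757.5, the last being a fitted value that depends on the prior count. Without the run term 0 genes were called. All 3 young repopulated libraries had numbers 22 to 24, so a run of their own could not be told apart from the group. In Wdfy1 and Pgk1 their levels were near those of young libraries of numbers 1 to 11.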

How the results depend on the processing

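The number of genes called in old repopulated versus old libraries depended on the processing. It was 114 (25 higher, 89 lower), and 52 (12 and 40) without the run term, 183 (42 and 141) with a mean of at least 5 CPM, 644 (215 and 429) with DESeq2, 920 (390 and 530) with voom and sample quality weights, and 12 (0 and 12) with glmTreat at 1.5-fold. It was 0 with the old and old repopulated libraries alone (2293 genes at an unadjusted p under 0.05), 0 with those of numbers 1 to 11 alone (428), and 3 (2 and 1) with those of 12 to 24 alone, all of them fits with fewer samples. Of the alternatives added after seeing the data, leaving out the 4 libraries of highest monocyte markers gave 8 (2 and 6), and their marker level as a covariate 734 (250 and 484). Leaving out 1 library at a time gave 16 to 654 genes, 1 to 246 higher and 15 to 408 lower.

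The difference between ages was called for 7 genes, 0 without the run term, 108 with DESeq2, 148 with voom, 2 with glmTreat, 1859 with the monocyte covariate, 5 with the young repopulated libraries in the lower run and 1 to 27 without 1 library. Repopulation in young mice called 326 genes, 251 without the run term and 908 with that placement. The difference between runs was called for 0 genes, 1 without the low-count filter, 1 at a mean of at least 5 CPM, 15 with DESeq2, 8 with voom and 0 to 1 without 1 library. The cause of these moves was not tested.

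Over 37 alternatives, 2684 values of named genes kept direction and side of the threshold, 612 lost and 151 gained the call, and 5 changed sign: Csf1r to 0.0569 without the 4 libraries, Wdfy1 to 0.173 without the run term, and Tmem119 to 0.0209 without the run term, 0.0936 in numbers 1 to 11 and 0.0986 without the 4 libraries. A run term with 3 levels could not be fitted. No paired analysis was possible because the replicate numbers only follow accession order. Genes with few counts have wide errors, and differences near the spread of 5 against 8 libraries could not be called.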
